A study of Drosophila palustris with 2 samples.

Results

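In adult Drosophila palustris, which belongs to the quinaria group of fruit flies, 61 of 20053 annotated gene models gave many reads from both strands of the genome at once. These models were selected on their own counts in both libraries. Each had a minimum of 100 sense reads, that is, reads from the strand on which the model is annotated, in both libraries. Its antisense reads, from the opposite strand, made up 20% to 50% of the sum over the strands in each library. It also lost under 10% of its reads when strand was ignored, so that few of its reads lay on an annotated exon of the other strand. Those counts are therefore given as a description and not as a test.

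The study sequenced polyadenylated RNA to help annotate a draft genome. It had 1 group of 2 libraries, replicate 1 and replicate 2, each from a pool of 10 to 20 whole adults of mixed sex kept on cornmeal medium at room temperature. The sources used here name no strain, age or allele, and nothing was treated or contrasted. With 1 group, the comparisons available are between the strands of a model, between the models, and between the 2 pools, and a difference between pools has no further replicate check. In whole bodies, fewer cells of a type and less RNA per cell cannot be told apart. The models carry locus tags alone, so that no gene name, function, position or sequence is given for them and the tissue was not checked against markers.

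Antisense transcription is the copying of a gene's region from its opposite strand. It can come from a neighbouring gene whose transcript runs on across the region, from a promoter that fires in both directions, or from an independent RNA, and where both transcripts occur in one cell they can pair into double-stranded RNA. In Drosophila melanogaster, pairs of overlapping messenger RNAs from opposite strands are a known source of small interfering RNAs, which are made by Dicer and loaded into Argonaute proteins. A directional library, as used here, keeps the strand of each RNA and so can show antisense reads. It does not tell which of these sources a read came from, and none of them was tested here.

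The libraries held 46610675 sense and 373551 antisense reads in replicate 1, and 39026623 and 380585 in replicate 2. The antisense share over all gene models was thus 0.795% and 0.966%. Levels are given as CPM, counts per 1000000 sense reads after TMM scaling, with the antisense reads put on the same scale. CPM is not corrected for length, so it compares reads and not numbers of transcripts between models, while the 2 strands of 1 model are counted over the same exons. The reads had served as evidence for predicting the models, so that the strand of a model is not independent of them.

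Among shares up to 50%, the 61 models lay at the upper end of a continuous distribution and did not form a class of their own. Among the 11231 models with a minimum of 100 sense reads per library and under 10% loss, 292 had a pooled antisense share of 5% to 10%, 83 of 10% to 15% and 63 of 15% to 20%. The numbers went on falling beyond the bound of 20%, with 33 models at 20% to 25%, 23 at 25% to 30% and 15 at 30% to 35%. They were 6 at 35% to 40%, 7 at 40% to 45% and 2 at 45% to 50%. A share within the bounds in at least 1 library was found in 125 models, of which 64 met it in 1 library alone. Shares over 50% are not part of these numbers, and the minimum of 100 sense reads removes models read mainly on the antisense strand. With at least 100 reads over both strands in each library, 116 models had an antisense share over 50% in each. They held 49.8% and 51.9% of all antisense gene reads.

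**Figure D1:**
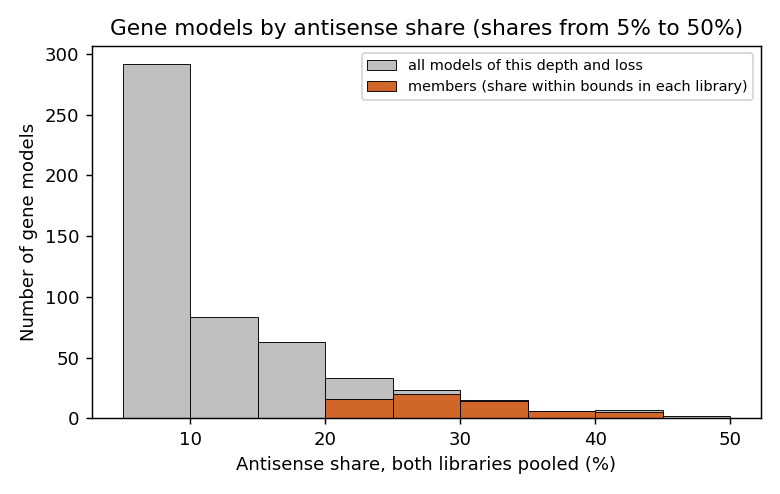
Number of gene models (vertical axis) by antisense share of the pooled reads of both libraries, in steps of 5 percentage points from 5% to 50%. Shares outside this range are not shown. Grey bars show all models with a minimum of 100 sense reads per library and under 10% loss, orange bars the 61 models read on both strands; the counts go from 292 in the lowest step to 2 in the highest, with no gap at 20%.

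Models just inside and just outside a bound were close in the value nearest to it, by which they were picked. Just inside the lower bound, ACLKA6_011208 had shares of 22.97% and 20%, ACLKA6_018316 had 20.2% and 22.8%, and ACLKA6_016671 had 20.2% and 22.6%, in replicates 1 and 2. Just outside it, ACLKA6_001941 had 19.9% and 28.2%, ACLKA6_010619 had 19.9% and 29.7%, and ACLKA6_001683 had 19.6% and 29.3%. Their shares in replicate 2 were thus above both shares of the models just inside. At the upper bound ACLKA6_008242 reached 50% in replicate 2, followed by ACLKA6_010798 and ACLKA6_012142 at 48.7% and 48.6% in replicate 1, whereas ACLKA6_009333 at 50.9% and ACLKA6_008738 at 51.7%, both in replicate 1, and ACLKA6_012963 at 52.1% in replicate 2 fell outside. On loss, ACLKA6_016443 at 9.31% and ACLKA6_011948 at 8.54% were the last inside, and ACLKA6_001679 at 10.5% and ACLKA6_019376 at 10.98% the first outside.

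Most of the 61 models were read at low levels on both strands. The median was 5.85 sense CPM and 2.46 antisense CPM in replicate 1, and 6.06 and 2.98 CPM in replicate 2. Sense reads ranged from 102 to 15104 in replicate 1, with a median of 278, and from 103 to 20961 in replicate 2, with a median of 232. Antisense reads ranged from 35 to 9064 in replicate 1, with a median of 117, and from 33 to 13876 in replicate 2, with a median of 114. By mean sense level 22 models lay under 5 CPM, 20 at 5 to 10 CPM, 12 at 10 to 20 CPM and 7 at 20 CPM or more. For comparison, all 11316 models with at least 100 sense reads had a median of 30.7 and 31.6 sense CPM and of 0.0842 and 0.0783 antisense CPM.

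The antisense share had a median of 27.8% in replicate 1 and 28.3% in replicate 2. Its middle 50% of models ran from 22.9% to 32.2% in replicate 1 and from 23.9% to 34.8% in replicate 2. With both libraries pooled, 16 models lay at 20% to 25%, 20 at 25% to 30%, 20 at 30% to 40% and 5 above 40%. The share did not go with the sense level among the 61 models (Spearman rho = -0.02 over 61 models, which share the same 2 libraries). The rule bounds the share and sets a minimum on the sense reads. This rho therefore describes the 61 alone and not the relation over all models. The bounds on the share tie the antisense level to the sense level, so that the close relation of the 2 levels (Pearson r = 0.951 on log10 CPM) follows from the selection.

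**Figure D2:**
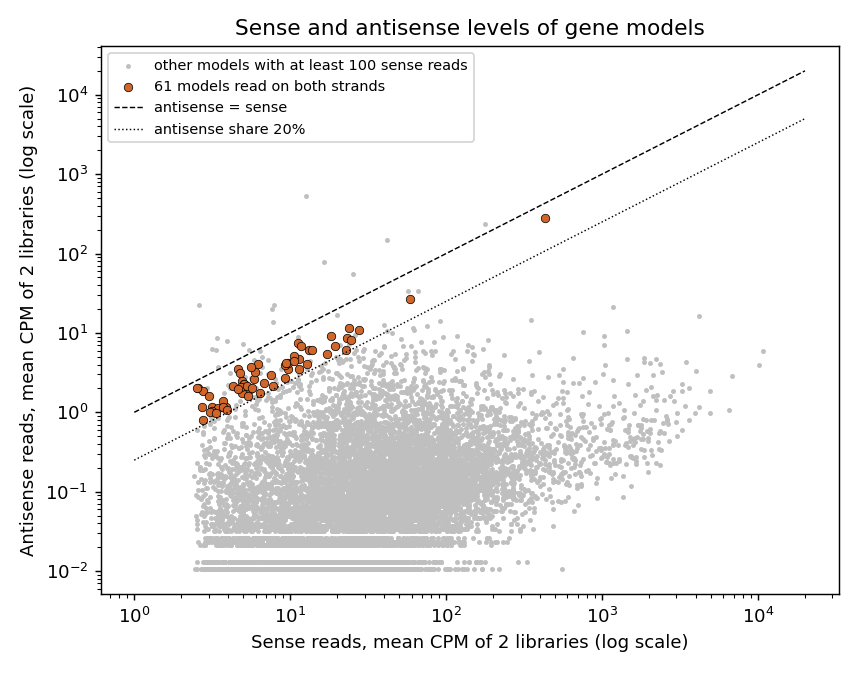
Mean antisense CPM of the 2 libraries (vertical, log scale) against mean sense CPM (horizontal, log scale), 1 point per gene model with a minimum of 100 sense reads per library and at least 1 antisense read; orange points are the 61 models read on both strands. They lie between the lines for an antisense share of 20% and for equal reads on both strands, mostly under 20 sense CPM, with ACLKA6_011948 far above the rest at 433 sense CPM.

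A single model, ACLKA6_011948, stood apart from the other 60. It had 15104 sense and 9064 antisense reads in replicate 1, and 20961 sense and 13876 antisense reads in replicate 2. Its mean level was 433 ± 162 CPM on the sense strand and 277 ± 121 CPM on the antisense strand (SD, n = 2), which ranked 341 and 6 among all annotated models. Antisense reads made up 37.5% (95% Wilson interval 36.9 to 38.1) and 39.8% (39.3 to 40.3) of the sum over the strands in replicates 1 and 2. Both strands were higher in replicate 2, the sense strand by 1.72-fold and the antisense strand by 1.90-fold.

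The reads that ACLKA6_011948 lost without strand were equal in number to those lost by the next tag. It lost 2345 reads in replicate 1 and 2694 in replicate 2, and ACLKA6_011949 lost exactly the same numbers. ACLKA6_011949 itself was read almost wholly on its sense strand, with 5014 sense and 0 antisense reads in replicate 1 and 6376 and 3 in replicate 2. A count of 0 allows up to 3 reads. Since a read that is antisense to one of a pair of opposite models is sense to the other, nearly all the shared reads were antisense reads of ACLKA6_011948. At least 6719 of its antisense reads in replicate 1 (74.1%) and 11182 in replicate 2 (80.6%) lay on no annotated exon of the other strand. They outnumbered all sense reads of ACLKA6_011949 in each library.

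The single model decided how much of the antisense signal the group held. Together the 61 models had 19693 antisense reads in replicate 1 and 23244 in replicate 2, which is 5.27% and 6.11% of all antisense gene reads, a mean of 5.69% ± 0.591 (SD, n = 2). Without ACLKA6_011948 the other 60 held 2.85% and 2.46%. Of all sense gene reads the 61 models held 0.0882% and 0.110%, and the other 60 held 0.0558% and 0.0561%.

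The next models by antisense reads were far lower on both strands. ACLKA6_006101 had 2930 and 2135 sense reads and 1524 and 822 antisense reads, a share of 34.2% in replicate 1 and 27.8% in replicate 2. Its level was 58.7 ± 4.19 sense CPM and 26.8 ± 7.51 antisense CPM (SD, n = 2), and the antisense ratio of replicate 2 to replicate 1 was -0.58 on the log2 scale (exact 95% interval -0.70 to -0.46). The antisense strand of this model thus moved more than its sense strand, whose log2 ratio was -0.15.

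ACLKA6_007612 had 1112 and 918 sense reads and 515 and 458 antisense reads, with shares of 31.7% and 33.3%. ACLKA6_015777 had 1384 and 1014 sense reads and 450 and 460 antisense reads, with shares of 24.5% and 31.2%. ACLKA6_005512 had 891 and 680 sense reads and 465 and 328 antisense reads, with shares of 34.3% and 32.5%. Of these, ACLKA6_007612 and ACLKA6_005512 had shares whose intervals overlapped between the libraries, and ACLKA6_015777 did not. ACLKA6_003330, which was among the 5 highest on the sense strand at 24.7 ± 0.191 CPM (SD, n = 2), had 360 and 336 antisense reads and shares of 23.4% and 26.3%.

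The models nearest to equal reads on both strands were shallow. ACLKA6_010798 had 102 and 112 sense against 97 and 77 antisense reads, so that the share was 48.7% (95% Wilson interval 41.9 to 55.6) in replicate 1 against 40.7% (34.0 to 47.9) in replicate 2. ACLKA6_012142 had 110 and 109 sense against 104 and 69 antisense reads, or 48.6% and 38.8%. ACLKA6_004640 had 223 and 174 sense against 161 and 140 antisense reads, or 41.9% and 44.6%. Intervals of this width cannot place the 2 strands of the first pair of models in order in replicate 1, because they span 50%. ACLKA6_004368 (43.4% and 37.2%) and ACLKA6_009830 (46.9% and 33.4%) completed the 5 highest pooled shares.

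At the other end, ACLKA6_013592 had the lowest pooled share and one of the closest pairs of values. It had 1072 and 884 sense reads and 279 and 240 antisense reads, a share of 20.7% (95% Wilson interval 18.6 to 22.9) and 21.4% (19.1 to 23.8). The other two lowest, ACLKA6_016671 and ACLKA6_018316, were those given above at the lower bound.

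No model of the 61 differed between the pools on its sense strand by the rule used, which asked for an adjusted p under 0.05 and at least a 2-fold difference (exact binomial test, two-sided, with Benjamini-Hochberg adjustment over all models tested). Over all 13702 models tested, 4.25% were called, 2.69% higher and 1.57% lower in replicate 2. Against so low a background the count of 0 is not a result about the 61 models. Without the fold minimum 23 of the 61 passed the adjusted p, against 59.4% of all models tested. An unadjusted p of 0.05 was passed by 27 of the 61, none of them at 2-fold, and no share over all models is given for it. Sense log2 ratios of replicate 2 to replicate 1 ranged from -0.61 to 0.82, and 55 of the 61 models lay within 1.5-fold.

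The antisense strand varied more between the pools than the sense strand of the same models. By the same rule 3 of the 61 models differed on the antisense strand, all higher in replicate 2, and none was lower. Over the 3532 models tested on the antisense strand 10.4% were called, 8.64% higher and 1.81% lower in replicate 2. Among the 909 models with a minimum of 100 sense and 30 antisense reads per library, a depth chosen after the values were seen, it was 7.15%. The 3 calls are near that background. The median antisense log2 ratio over all models tested was 0.20, and it was -0.14 when each library was scaled by its own antisense total instead. All 3 models stayed higher in replicate 2 under that scaling, but only 1 of them was still called, and ACLKA6_006619 was then called as lower. Antisense log2 ratios ranged from -0.73 to 1.80, and 43 of the 61 lay within 1.5-fold.

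The median absolute log2 ratio was 0.34 on the antisense strand and 0.18 on the sense strand, and the antisense ratio was the larger of the pair in 41 of the 61 models. Antisense counts were lower, and with them the counting error larger. At similar counts, the 3094 models with 33 to 459 sense reads in each library had a median absolute sense ratio of 0.31. The 848 other models with those minimums of 100 sense and 30 antisense reads had a median absolute antisense ratio of 0.37. The 0.34 of the 61 models was close to both values. The rule bounds the share of the 61 in each library and not that of the other models. The closeness therefore cannot show whether the antisense spread of the 61 was that of any counts of this size.

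The 3 antisense calls were on models of few reads. ACLKA6_008242 had 67 antisense reads in replicate 1 and 189 in replicate 2, against 219 and 189 sense reads. Its antisense log2 ratio was 1.80 (exact 95% interval 1.40 to 2.23, exact binomial adjusted p = 4.65e-19), while its sense log2 ratio was 0.10. ACLKA6_012591 had 45 and 88 antisense reads and 112 and 141 sense reads, so that both strands were higher in replicate 2, with log2 ratios of 1.27 and 0.64. The remaining call, ACLKA6_018150, lay at the fold minimum itself, with 68 and 112 antisense reads and a log2 ratio of 1.03.

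The share of antisense reads differed between the pools in 17 of the 61 models, at an adjusted p under 0.05 and an odds ratio of at least 1.5 (two-sided Fisher's exact test of the strands by library, Benjamini-Hochberg). Of these, 12 had a higher share in replicate 2 and 5 a lower one. Over all 13773 models tested 3.62% were called, 2.82% higher and 0.799% lower. Most of those models had hardly an antisense read to test, and among the 909 models of comparable depth named above 24.9% were called, against 27.9% of the 61. These percentages are close, but the rule bounds the share of the 61 in each library and not that of the other models. The closeness is therefore not a result about the 61 models. The bounds of the rule also hold the odds ratio of any of the 61 models to at most 4.

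The larger move was not on the same strand in all 17 models. In 12 of them the antisense reads moved more than the sense reads, in the other 5 the sense reads moved more, and in 11 the strands moved in opposite directions. A minimum on the odds ratio selects strands that moved apart and so favours opposite directions. By the rule for single strands, 2 of the 17 were called on the antisense strand and 0 on the sense strand. Over all 61 models the sense and antisense log2 ratios were nearly unrelated (Pearson r = 0.01, Spearman rho = 0.05), a description of 61 models that share the same 2 libraries, within the bounds that the rule puts on the share. In 40 of the 61 models the 95% Wilson intervals of the share overlapped between the libraries. No such count over all models is given, and the bounds limit how far apart the 2 shares can lie. The count is therefore not a result about the 61 models. The median absolute difference of the share was 6.17 percentage points and the largest 26.6.

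**Figure D3:**
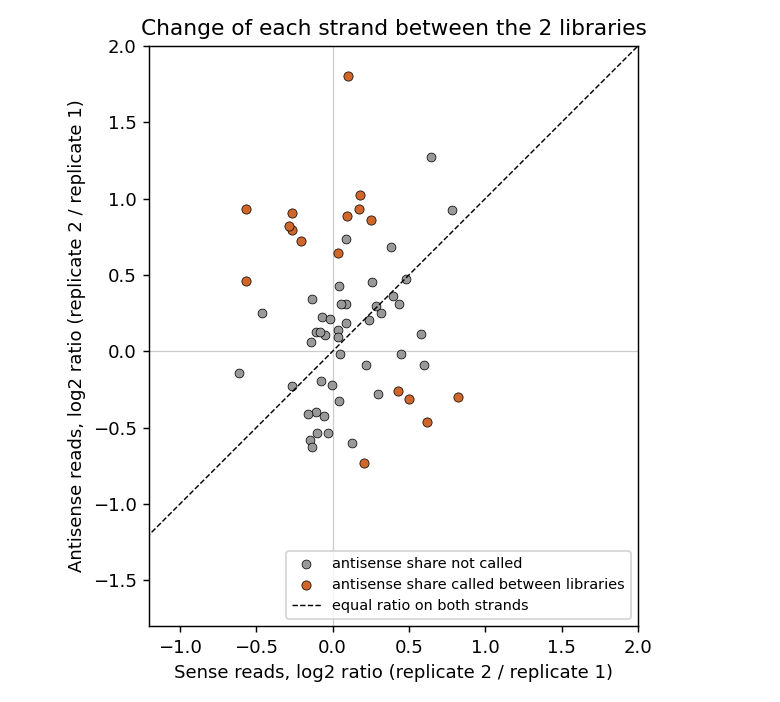
Antisense log2 ratio (vertical) against sense log2 ratio (horizontal) of replicate 2 to replicate 1, 1 point for each of the 61 models; orange points are the 17 whose antisense share was called between the libraries, and the dashed line marks equal ratios on both strands. The points spread from -0.73 to 1.80 on the antisense axis and from -0.61 to 0.82 on the sense axis, with no common slope.

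The largest rise of the share was in ACLKA6_008242, from 23.4% in replicate 1 (95% Wilson interval 18.9 to 28.7) to 50% in replicate 2 (44.98 to 55.02), an odds ratio of 3.25 (exact 95% interval 2.30 to 4.67). ACLKA6_007404 followed, with 287 and 156 sense reads and 74 and 114 antisense reads. Its share was 20.5% and 42.2%, an odds ratio of 2.82 (1.96 to 4.09), and its sense strand was lower in replicate 2 while its antisense strand was higher. ACLKA6_015679 had 303 and 203 sense reads and 88 and 133 antisense reads, with shares of 22.5% and 39.6% and an odds ratio of 2.25 (1.61 to 3.16).

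By the odds ratio, the largest falls were smaller than these rises. ACLKA6_013087 had 203 and 289 sense reads and 171 and 112 antisense reads, so that its share was 45.7% in replicate 1 and 27.9% in replicate 2, an odds ratio of 0.461 (exact 95% interval 0.337 to 0.627). Its sense strand moved more, by a log2 ratio of 0.82, which was the largest among the 61 models. ACLKA6_012540 had 399 and 493 sense reads and 284 and 166 antisense reads, with shares of 41.6% and 25.2% and an odds ratio of 0.474 (0.372 to 0.601). In ACLKA6_006619 the sense reads were nearly level at 502 and 466 while the antisense reads were 278 and 135, which gave shares of 35.6% and 22.5% and an odds ratio of 0.524 (0.408 to 0.670).

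Other models held the same share in both pools within their error. ACLKA6_001692 had 805 and 670 sense reads and 262 and 209 antisense reads, with a share of 24.2% ± 0.550 (SD, n = 2), and ACLKA6_012962 had 911 and 1026 sense reads and 345 and 387 antisense reads, with a share of 27.5% in replicate 1 and 27.4% in replicate 2. Both were chosen after their values were seen. ACLKA6_013592, above, had a share of 21.0% ± 0.496 (SD, n = 2).

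**Figure D4:**
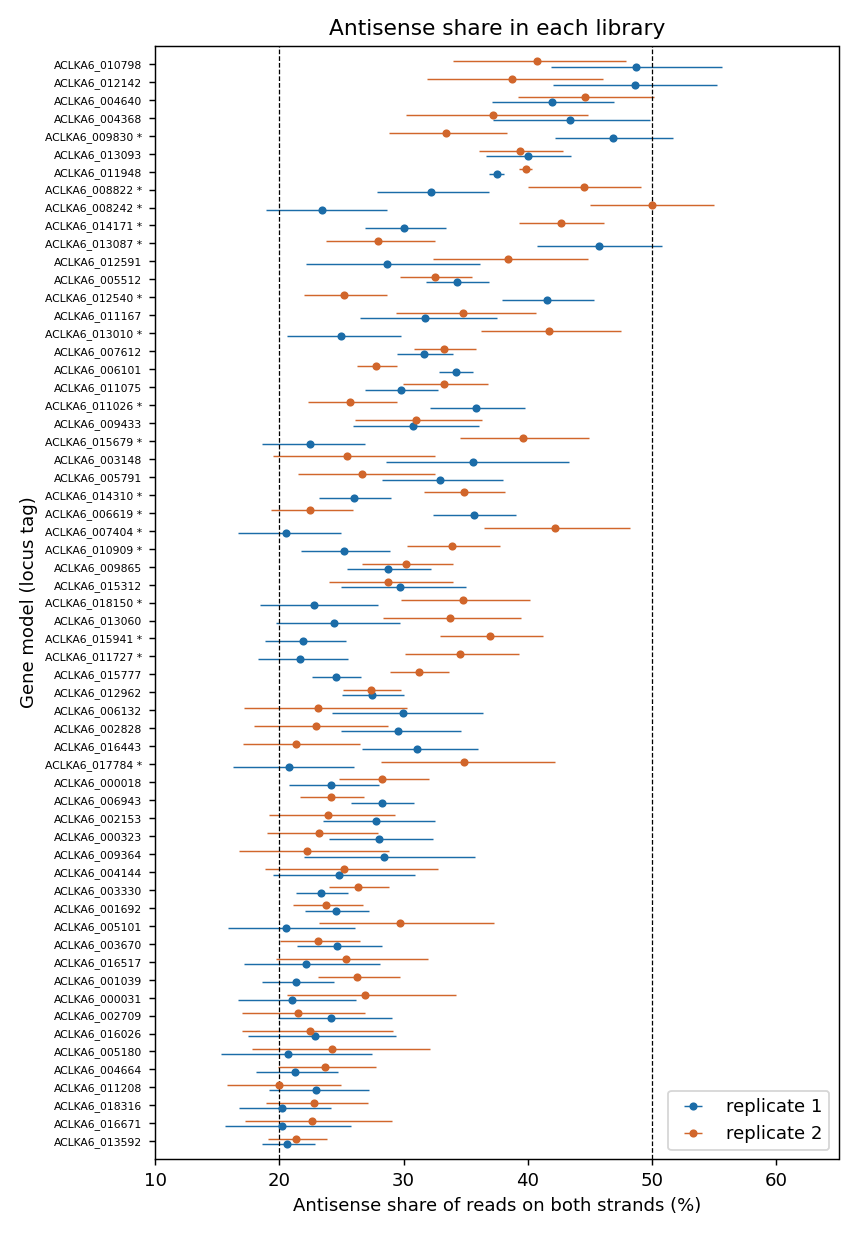
Antisense share of the reads on both strands (horizontal, %) in replicate 1 (blue) and replicate 2 (orange) for each of the 61 models, ordered by pooled share, with 95% Wilson intervals as bars and the bounds of 20% and 50% dashed. An asterisk marks the 17 models whose share was called between the libraries; in ACLKA6_008242 the values are 23.4% and 50%, in ACLKA6_013592 20.7% and 21.4%.

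In most of the 61 models few of the antisense reads lay on annotated features of the other strand, which the rule in part selects. No read at all was lost without strand in 26 of the 61 models (42.6%), 19 lost 1 to 9 reads over both libraries, and 16 lost 10 or more. Over all models with at least 100 sense reads, 67.1% lost none, but most of those had hardly an antisense read. The rule limits the loss to under 10% of all reads and sets antisense reads to at least 20%, and so by itself leaves over 50% of them outside such exons. The measured values went further: in 53 models the lost reads came to under 10% of the antisense reads, and even in the model with the greatest loss for its antisense reads at least 65.4% of these lay elsewhere. No such values are given for other models, so that they only describe the 61. Over both libraries the 61 models had 42937 antisense reads and 5619 lost reads, and without ACLKA6_011948 there were 19997 and 580.

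In a minority of the models with lost reads, an adjacent tag lost the same number in each library. This held for 13 of the 35 models with a lost read and for 6 of the 16 with 10 or more. The other 7 of the 13 lost at most 5 reads over both libraries, where equal numbers say little. ACLKA6_011075 lost 74 and 63 reads, as did ACLKA6_011076, and ACLKA6_001692 lost 53 and 37 reads, as did ACLKA6_001693. In both pairs the second tag was read almost wholly in the sense direction, with 678 and 488 sense reads against 9 and 6 antisense reads in ACLKA6_011076, and 917 and 674 against 3 and 0 in ACLKA6_001693. The other pairs with 10 or more lost reads were ACLKA6_006132 with ACLKA6_006133, ACLKA6_013010 with ACLKA6_013011 and ACLKA6_017784 with ACLKA6_017783.

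Where they had a minimum of 100 sense reads per library, the tags next to the 61 models were in general read on 1 strand. All 61 had a tag number directly before and after theirs, and none of these tags was itself one of the 61. Of the adjacent tags, 101 had a minimum of 100 sense reads per library, and their median pooled antisense share was 0.188%, against 0.217% over all models of that depth. A share of 5% or more was found in 6 of the 101 (5.94%), against 5.10% over all such models. At this depth, reading on both strands was thus mostly limited to single tags. Shallower neighbours were left out of these numbers, and they varied. ACLKA6_007403 had 47 and 39 sense against 36 and 46 antisense reads, and ACLKA6_001040 had 96 and 81 against 2 and 0.

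Among the exceptions at that depth was a run of 3 tags, and the others were single neighbours of a model. ACLKA6_005512 lay between ACLKA6_005511, with antisense shares of 8.66% and 20.2%, and ACLKA6_005513, with 9.20% and 22.6%, so that 3 tags in a row had antisense reads. In both outer tags the share was higher in replicate 2, and in ACLKA6_005512 it was not. ACLKA6_012962 was followed by ACLKA6_012963, which had 331 and 182 sense against 183 and 198 antisense reads and passed the upper bound in replicate 2 alone. ACLKA6_011727 was preceded by ACLKA6_011726, which had more antisense than sense reads, 368 against 206 and 317 against 136. ACLKA6_012541, next to ACLKA6_012540, had shares of 15.5% and 21.2%. ACLKA6_018315, next to ACLKA6_018316, had 2.94% and 8.47%, with a pooled share of 5.07%. In every exception named here the share was higher in replicate 2, as was the antisense share over all gene models. These tags were chosen after their values were seen.

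One neighbour was usually read more strongly than the model itself. In 56 of the 61 models (91.8%) the higher of the 2 adjacent tags exceeded the model's own mean sense CPM, and in 26 it did so by over 10 times. The share was 57.7% over all models with at least 100 sense reads, but those have higher levels of their own. Among models at 2 to 20 mean sense CPM it was 50 of 54 (92.6%), against 79.9% of all 3929 models at those levels, a difference given without a test. The higher adjacent tag had a median of 59.6 CPM for the 54 models and 36.5 CPM for the 3929.

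In 3 of the 61 models, ACLKA6_011948, ACLKA6_005101 and ACLKA6_014171, the antisense level exceeded the sense level of both adjacent tags. No such count over all models is given. The median antisense levels of the 61 were 2.46 and 2.98 CPM. Over all models with at least 100 sense reads, the higher adjacent tag had a median of 45.8 sense CPM. The count is therefore not a result about the 61 models. ACLKA6_005101 had 190 and 111 sense and 49 and 47 antisense reads, while the tags on either side had at most 7 sense reads in a library. ACLKA6_014171 had 230 and 343 antisense reads, against 139 and 135 sense reads in ACLKA6_014170 and fewer in ACLKA6_014172. The antisense ratio between the pools followed the sense ratio of the higher adjacent tag weakly (Pearson r = 0.22, Spearman rho = 0.21 over 61 models that share the same 2 libraries).

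Neighbouring sets of models are given for comparison. The 61 had medians of 5.85 and 6.06 sense CPM and of 2.46 and 2.98 antisense CPM. A separate set of 61 models with 10% to 20% antisense reads in each library and the same depth and loss had a median of 15.1 sense CPM in each replicate and 2.23 and 3.08 antisense CPM. With antisense levels near those of the 61, the higher sense levels of this set follow from its bounds on the share. The antisense share was called between the pools in 10 of its models (16.4%). The 24 models that met the rule but for a loss of 10% or more had a median of 7.17 and 6.18 sense CPM and 3.09 and 3.42 antisense CPM, and 6 of them (25%) were called. No test was made between these sets.

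Ignoring strand would raise the apparent level of each of the 61 models. The unstranded count was 1.24 to 1.81 times the sense count, with a median of 1.40, against a median of 1.00 over all models with at least 100 sense reads. The rule fixes most of this range. Counted without strand, none of the 61 was called between the pools, against 4.12% of all models tested, so that this count too is not a result about them.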

How the data were processed

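The deposited tables hold raw counts per gene model, 1 table a library, which the authors made with fastp and STAR, version 2.7.11b, as the submitters' processing notes name them. Of 3 columns, the reverse-strand one was taken as sense and the forward-strand one as antisense. Settings, the fastp version and how read pairs count are not stated in the sources used here. The models were predicted with BRAKER 3.0.6, per the series' design text. The 4 entries that name no gene entered neither library sizes nor tests; under sense counting they held 26.8% and 30.1% of the 63649388 and 55800005 reads. Replicate numbers come from the sample titles. The p-values set the difference between these 2 libraries against counting error alone and do not measure a spread between libraries. Such a difference may be technical.

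The loss of a model is 1 minus its unstranded count over its summed sense and antisense counts, both libraries together. Adjacent tags have a number 1 lower or higher and stand next to the model in the table.

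Sense totals with TMM factors of 1.02 and 0.981 (edgeR 4.0.16, R 4.3.3) gave the library sizes. With 1 group no quasi-likelihood test could be made. Each strand was tested by an exact binomial test across all models with 10 or more reads per library, or a total of 20 or more, and the strand share by Fisher's exact test over models with 10 or more reads per library (scipy 1.17.1), with Benjamini-Hochberg adjustment over all models tested and 0.5 added to counts in ratios. Reads are not independent molecules, so intervals and the floor of 3 reads for a count of 0 cover counting error alone. All tests were tried on simulated counts that held counting error alone and changes larger than the minimums used. Such counts do not check calls near those minimums or a spread between pools. Alternatives were DESeq2 1.42.0 size factors, total reads, other minimums, unstranded counts and other bounds of the rule.

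The models and lists were chosen with earlier results of these data known. Named models are the 5 highest in sense CPM, in antisense reads and in pooled share, the 3 lowest in share, the 3 largest changes of share each way, and the 2 largest ratios of each strand each way among those called. Any other model was picked with its values in view.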

Additional observations from a re-analysis of the deposited data

How the results depend on the processing

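The number of models read on both strands depends on the bounds. The 61 became 96 with a minimum of 50 sense reads, 11 with 500, 174 with a lower bound of 0.10, 13 with 0.30 and 26 with no lost read. Pooled counts of both libraries gave 101. With 1 library alone there were 91 (replicate 1) to 115 (replicate 2), of which 60 and 61 were among the 61. The calls on the sense strand were 6 at 1.5-fold and 23 with no fold minimum, in place of 0, against 17.8% and 59.4% of all models tested. On the antisense strand the 3 calls became 17 at 1.5-fold, 0 at 4-fold and 23 with no fold minimum, against 16.2%, 2.18% and 18.2%. The 17 calls on the strand share became 8 at an odds ratio of at least 2, against 2.75% of all models tested. Of 29 alternative counts, 16 stayed within 1.5 times, among them DESeq2 size factors and scaling by total sense reads. Scaling by total antisense reads moved the median antisense log2 ratio over all models from 0.20 to -0.14 and that of the 61 from 0.19 to -0.15. All 3 antisense calls kept their direction under it, but ACLKA6_012591 (0.93) and ACLKA6_018150 (0.69) were no longer called, and ACLKA6_006619 was called as lower. The share of antisense reads held by the group, 5.69%, was 2.65% without ACLKA6_011948, an alternative chosen after seeing the data, and 0.823% for models with no lost read. No paired analysis was possible because both libraries belong to 1 group. Depth limits the shares of the shallow models: that of ACLKA6_010798 in replicate 1 has an interval of 41.9% to 55.6%.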
